A study of Mus musculus with 5 samples.

Results

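The 10 genes described here encode the core of transforming growth factor beta (TGF-beta) signalling: the ligands Tgfb1, Tgfb2 and Tgfb3, the receptors Tgfbr1 and Tgfbr2, and the intracellular Smads Smad2, Smad3, Smad4, Smad6 and Smad7. They were chosen by name, and every region of the deposited table whose gene list holds one of these names was taken. All 10 were found among the 18161 genes with a region, and they held 20 of the 30965 regions. Each gene was read at its region with the highest mean signal, and also at the region whose centre lies nearest to its start.

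The mark measured was propionylation of lysine 23 of histone H3 (H3K23Pr), an acyl mark placed on chromatin, profiled by chromatin immunoprecipitation and sequencing with an antibody to the propionylated residue. Hearts came from male C57Bl/6J mice aged 12 weeks, with no transgene or deletion named in the labels. The control diet sham group ate a diet that contained leucine, isoleucine and valine, the branched-chain amino acids (BCAA), and had a sham operation, and the control diet TAC group ate that diet and had transverse aortic constriction (TAC), a narrowing of the aorta that puts the left ventricle under pressure load. The BCAA-free sham and BCAA-free TAC groups underwent the same operations on a diet without BCAA. Diets began 4 days before surgery and continued for the 2 weeks after it. Each group was 1 library from a pool of 3 hearts, so no difference below has a replicate check and no p-value is given. Samples were grouped by their titles; in 3 samples the treatment field names another group.

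TGF-beta ligands are secreted in a latent form, released in the matrix, and bind the type II receptor TGFBR2, which activates the type I receptor TGFBR1. The activated type I receptor phosphorylates SMAD2 and SMAD3, which join SMAD4 and regulate genes in the nucleus, while SMAD6 and SMAD7 inhibit the signal. In the heart the pathway is best known for turning fibroblasts into matrix-producing cells after injury or pressure load.

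Of the 10 genes, 6 matched the RefSeq promoter table of build GRCm38.p6 (mm10 is the browser name of that assembly), with 7 promoter windows. The 250 bases before the start are shown for the ligands with the highest and the lowest mean signal (Tgfb1 and Tgfb2) and for 1 activating and 1 inhibitory Smad (Smad3 and Smad6), because signal at Tgfb2 and Smad3 differed between the libraries in another order than at Tgfb1 and Smad6. Each runs 5′ to 3′ on the gene's own strand, and capitals mark the GC box, GGGCGG or its reverse complement CCGCCC.
Tgfb1, chr7:25686752-25687001, plus strand: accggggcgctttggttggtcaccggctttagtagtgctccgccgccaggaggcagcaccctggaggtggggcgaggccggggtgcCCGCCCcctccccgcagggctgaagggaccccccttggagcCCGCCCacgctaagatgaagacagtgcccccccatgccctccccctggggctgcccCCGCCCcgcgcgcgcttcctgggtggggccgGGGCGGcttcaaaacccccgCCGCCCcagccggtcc
Tgfb2, chr1:186705990-186706239, minus strand: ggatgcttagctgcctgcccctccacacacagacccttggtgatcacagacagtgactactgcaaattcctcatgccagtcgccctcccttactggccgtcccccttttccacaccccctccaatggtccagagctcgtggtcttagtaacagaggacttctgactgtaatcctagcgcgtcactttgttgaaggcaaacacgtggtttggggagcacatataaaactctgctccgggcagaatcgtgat
Smad3, chr9:63757995-63758244, minus strand: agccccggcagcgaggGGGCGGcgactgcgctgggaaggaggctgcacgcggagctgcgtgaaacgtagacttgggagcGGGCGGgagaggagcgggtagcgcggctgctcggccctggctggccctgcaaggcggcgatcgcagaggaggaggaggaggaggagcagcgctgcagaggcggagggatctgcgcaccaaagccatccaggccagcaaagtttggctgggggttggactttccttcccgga
Smad6, chr9:64022060-64022309, minus strand: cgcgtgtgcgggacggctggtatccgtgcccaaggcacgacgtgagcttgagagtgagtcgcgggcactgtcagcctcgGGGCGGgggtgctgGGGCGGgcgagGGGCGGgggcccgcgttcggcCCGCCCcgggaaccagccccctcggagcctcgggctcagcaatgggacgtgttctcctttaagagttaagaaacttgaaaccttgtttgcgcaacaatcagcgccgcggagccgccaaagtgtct

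The start next to each of these 4 windows lay inside an H3K23Pr region. For Tgfb1 that was not the highest-mean region, on which its rank and its order of libraries rest. At the region over the Tgfb1 start BCAA-free TAC was the lowest library, as it was at Tgfb2 and Smad3. GC boxes numbered 5 before Tgfb1, 4 before Smad6, 2 before Smad3 and 0 before Tgfb2, where 32.7% of all 32851 windows of the same length held at least 1. CpG dinucleotides numbered 21 at Tgfb1, 27 at Smad6, 22 at Smad3 and 8 at Tgfb2, against a median of 6 over all windows. The Tgfb2 window held the TATA box TATAAA, which 12.4% of all windows held on either strand, and the others of these 4 did not. The Smad palindrome GTCTAGAC and the cAMP response element TGACGTCA were found in 0 of the 7 windows, and they occurred in 0.167% and 1.55% of all windows. The short Smad binding element AGAC, on either strand, was in 6 of the 7, where 82.9% of all windows held it, and its longer form CAGACA was in 2, where 17.1% did. The phorbol ester response element, searched as TGAGTCA and its reverse complement TGACTCA, was in 0 of the 7 and in 4.46% of all windows. A match describes letters in a window and is not a binding site.

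H3K23Pr covered the genes to very different extents. Regions of Smad6 and Smad7, the inhibitory Smads, covered 100% of each gene, and those of Smad3 covered 99.3%. At the other end, regions covered 15.4% of Smad4 and 20.4% of Tgfbr1. The single region of Smad6 was 87.8 kb long and the highest-mean region of Tgfbr2 was 74.0 kb, against a median of 5.60 kb over all regions. With Smad3 (68.2 kb) and Smad7 (57.6 kb), 4 of the 10 highest-mean regions were at least 50 kb long, and 1.74% of all regions were. These shares are of unlike sets, since the highest-mean regions of all genes are only 11926 of all regions. The share of long regions among those is not given here. Of the 20 regions 12 held a promoter, and 16 were called in all 4 libraries. The same shares over all regions are not given here, so neither count is read as particular to these genes.

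**Figure D1:**
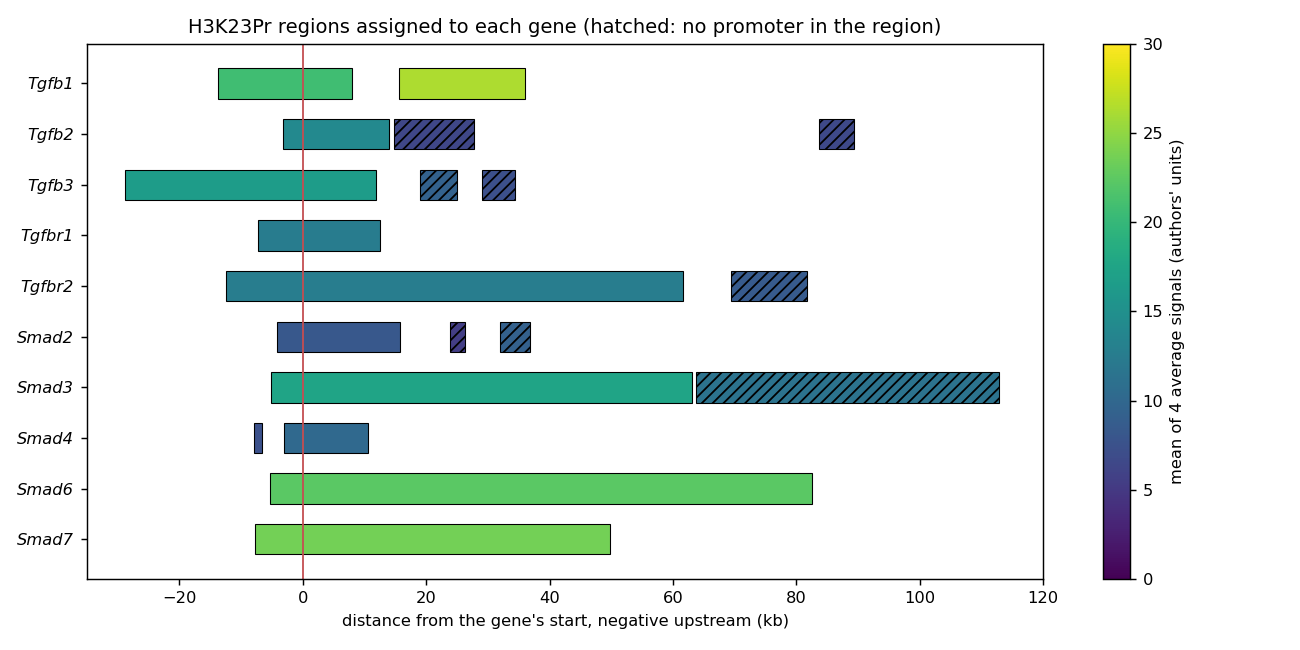
Regions assigned to each gene, drawn by distance from the gene's start in kb (negative is upstream); colour is the mean of the 4 average signals, and hatched bars hold no promoter. Smad6, Smad7, Tgfbr2 and Smad3 carry long regions that begin upstream of the start, and the weaker regions are mostly hatched and downstream.

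The order of the levels, read as average signal per base so that genes can be compared, began with Tgfb1 at a mean of 26.3 over the 4 libraries, at a shared region labelled downstream of the gene. The inhibitory Smads followed, Smad7 at 23.6 and Smad6 at 22.3, both at their start regions. At the region over its start Tgfb1 had a mean of 20.8, below both. The ranges of these 3 genes over the libraries overlapped one another in order, and Smad6 (19.8 to 25.1) did not overlap the next gene, Smad3 (15.4 to 19.5, mean 17.5). Tgfb3 (mean 16.5), Tgfb2 (14.1), Tgfbr2 (12.6) and Tgfbr1 (12.5) each overlapped its neighbour. Smad4 at 10.1 and Smad2 at 9.25 were the lowest and overlapped each other but not Tgfbr1. The median was 9.36 over all regions and 15.7 over the highest-mean regions of all genes, which 5 of the 10 exceeded.

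Average signal at the highest-mean region of Tgfb1, the ligand most linked to cardiac fibrosis, was 23.8 in control diet sham, 31.6 in control diet TAC, 24.6 in BCAA-free sham and 25.3 in BCAA-free TAC. Control diet TAC stood above the other libraries, which lay between 23.8 and 25.3. It was 1.33-fold higher than its sham library (95% counting interval 1.26 to 1.41), and on the BCAA-free diet TAC and sham differed by 1.03-fold (0.972 to 1.09). That region, at chromosome 7, 25702600 to 25722999, is labelled downstream of Tgfb1 and is shared with Ccdc97 and Hnrnpul1. The region over the Tgfb1 start, chromosome 7, 25673200 to 25694999, is shared with Exosc5, Tmem91 and B9d2 and holds 3 promoters. There the values were 19.3, 25.6, 19.9 and 18.2 in the same order of libraries. Control diet TAC was again the highest, 1.32-fold above sham (1.25 to 1.41), and BCAA-free TAC was 1.41-fold below control diet TAC (1.32 to 1.497). Neither region can be credited to Tgfb1 alone.

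At the start region of Tgfb2, a ligand of heart development that is induced again in injury, signal was 14.0 in control diet sham, 13.9 in control diet TAC, 16.7 in BCAA-free sham and 11.8 in BCAA-free TAC. The sham and TAC libraries on the control diet were within counting error of each other (ratio 0.995, 0.913 to 1.08), and the libraries on the BCAA-free diet were the highest and the lowest. BCAA-free TAC was 1.41-fold below BCAA-free sham (1.296 to 1.54), which placed Tgfb2 at percentile 6.82 of all genes in that comparison. Between the shams the BCAA-free diet stood 1.20-fold higher by average signal (1.10 to 1.297), and lower by peak signal (64 against 78). The region spans chromosome 1, 186692000 to 186709199, holds 1 promoter and 2 CpG islands, and belongs to Tgfb2 alone. A weaker region downstream of the gene, 86493 bp from its start by its centre, had 7.03, 5.97, 8.30 and 5.26 in the same order of libraries. There too BCAA-free sham was the highest and BCAA-free TAC the lowest, with BCAA-free TAC 1.58-fold below BCAA-free sham (1.27 to 1.97), and it was not called in the BCAA-free TAC library. The remaining Tgfb2 region, in the gene and without a promoter, had 6.37, 5.14, 7.96 and 6.22, so control diet TAC was the lowest there. TAC was lower than sham on the control diet as well (1.24-fold, 1.06 to 1.45), and BCAA-free TAC was 1.21-fold above control diet TAC (1.04 to 1.42).

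Tgfb3, the third ligand, had 15.3, 18.3, 16.0 and 16.4 in control diet sham, control diet TAC, BCAA-free sham and BCAA-free TAC at its start region, which it shares with Ift43. Control diet TAC was the highest, 1.20-fold above sham (1.14 to 1.26), and the other libraries lay close together. A pair of weaker regions without a promoter, both shared with Ttll5, differed more. The region whose centre lies 31742 bp from the start had 6.90, 11.0, 5.83 and 5.62, so that control diet TAC was 1.596-fold above its sham (1.31 to 1.95) and BCAA-free TAC 1.96-fold below control diet TAC (1.59 to 2.43). The nearer one, at 22042 bp, had 9.58, 10.6, 10.3 and 6.63, with BCAA-free TAC the lowest, 1.601-fold below control diet TAC (1.32 to 1.94) and 1.55-fold below BCAA-free sham (1.28 to 1.89).

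The receptors had the smallest spread over the libraries of the 10 genes, 1.17-fold at Tgfbr1 and 1.12-fold at Tgfbr2 from lowest to highest. Tgfbr1, the kinase that phosphorylates the activating Smads, had 12.8, 13.6, 11.6 and 12.0 in control diet sham, control diet TAC, BCAA-free sham and BCAA-free TAC. TAC and sham differed by 1.06-fold on the control diet (0.978 to 1.15) and 1.04-fold on the BCAA-free diet (0.952 to 1.13), both within counting error. Tgfbr2, the ligand-binding kinase, had 13.04, 12.7, 13.1 and 11.7 over its 74.0 kb region. BCAA-free TAC was the lowest, 1.12-fold below BCAA-free sham (1.07 to 1.17). Peak signal in that region, 215, 267, 231 and 170, was above that of the highest-mean region of every other gene of the 10 in both control diet libraries, and below Smad7 (243 and 209) in both BCAA-free libraries. By average signal Tgfbr2 was in the lower part of the order.

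The activating Smads Smad2 and Smad3, which carry the TGF-beta signal to the nucleus, differed from each other. Smad3 had 16.8, 18.3, 19.5 and 15.4 in control diet sham, control diet TAC, BCAA-free sham and BCAA-free TAC at its start region (chromosome 9, 63695000 to 63763199). As at Tgfb2, BCAA-free sham was the highest and BCAA-free TAC the lowest, 1.27-fold apart (1.22 to 1.32). On the control diet TAC was 1.08-fold above sham (1.04 to 1.13), so the TAC response had opposite signs on the diets, which it no longer had after centring on the median of all regions (log2 ratio -0.05 on the control diet). The other Smad3 region, 49.0 kb long, downstream of the first within the gene and shared with Aagab, had 10.3, 10.6, 14.4 and 10.4. Only BCAA-free sham stood apart there, 1.40-fold above control diet sham (1.33 to 1.48).

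At the region over the Smad2 start, signal was 8.43, 7.86, 8.75 and 7.44 in the same order of libraries, with BCAA-free TAC 1.18-fold below BCAA-free sham (1.06 to 1.31). Its highest-mean region was another one, 5.00 kb long, centred 34398 bp from the start within the gene and without a promoter, with 11.3, 8.79, 7.67 and 9.18. Control diet sham was the highest there and BCAA-free sham the lowest, 1.48-fold apart (1.21 to 1.80). This region rests on 171 to 253 approximate tags a library and has the widest counting intervals of the 10. The remaining region, 2.40 kb long, had 5.08, 4.18, 4.63 and 7.91 and was called in the BCAA-free TAC library alone, where it was 1.71-fold above BCAA-free sham (1.19 to 2.47). The start region and the inner regions of Smad2 thus gave different orders of the libraries.

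Smad4, the common partner of the activating Smads, had 9.89, 11.0, 9.25 and 10.2 in control diet sham, control diet TAC, BCAA-free sham and BCAA-free TAC at its start region. Both TAC libraries were above their shams, by 1.12-fold (0.999 to 1.25) and 1.10-fold (0.982 to 1.24), and both intervals include 1. A 1.20 kb region upstream of Smad4 was called in control diet TAC alone, with 6.40, 10.8, 6.79 and 5.74. It was 1.68-fold above sham there, with a counting interval of 1.08 to 2.65 from as few as 30.7 approximate tags in a library.

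The inhibitory Smads had high average signal over regions that covered their whole length. Smad6 had 21.4, 25.1, 19.8 and 22.9 in control diet sham, control diet TAC, BCAA-free sham and BCAA-free TAC. TAC was above sham on both diets, by 1.17-fold (1.14 to 1.20) on the control diet and 1.16-fold (1.12 to 1.19) on the BCAA-free diet. Smad7, which blocks the type I receptor, had 22.5, 26.9, 21.9 and 23.1, with TAC 1.20-fold (1.16 to 1.24) and 1.05-fold (1.02 to 1.09) above sham. In both genes control diet TAC was the highest library and BCAA-free sham the lowest.

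**Figure D2:**
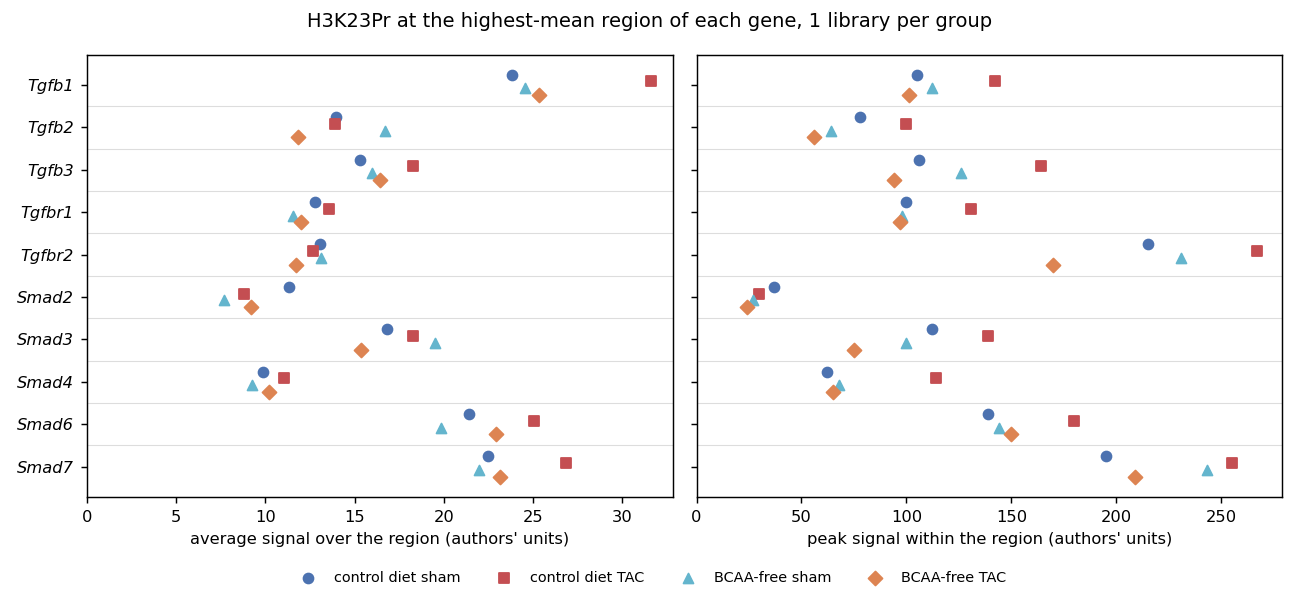
Average (left) and peak (right) H3K23Pr signal in the authors' units at the highest-mean region of each gene, 1 point per library. Control diet TAC (red squares) is highest by average signal at 6 of the 10 genes and by peak signal at 9, and BCAA-free TAC (orange diamonds) is lowest by peak signal at 7.

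By average signal at the highest-mean regions, the 10 genes fell into 4 groups according to the libraries in which they were highest and lowest. Tgfbr1, Smad4, Smad6 and Smad7 were highest in control diet TAC and lowest in BCAA-free sham, an order that 22.2% of all genes had. Tgfb1 and Tgfb3 were highest in control diet TAC and lowest in control diet sham, as were 19.4% of all genes. Tgfb2, Tgfbr2 and Smad3 were highest in BCAA-free sham and lowest in BCAA-free TAC, as were 7.54% of all genes. Smad2 was highest in control diet sham and lowest in BCAA-free sham, as were 1.44% of all genes. These orders take no account of counting error. At Tgfbr2 BCAA-free sham stood only 1.004-fold above control diet sham (0.963 to 1.05). The lowest libraries of Tgfb1, Tgfb3, Tgfbr1, Smad2, Smad4 and Smad7 were within counting error of the next lowest. At Smad2 these were BCAA-free sham, on 171 approximate tags, and control diet TAC, on 196. The highest libraries of Tgfbr1 and Smad4 were likewise within counting error of the next highest. The most frequent order over all genes, highest in control diet TAC and lowest in BCAA-free TAC (32.2%), was that of 0 of the 10 at these regions. The region over the Tgfb1 start did have that order. At the region over the Smad2 start BCAA-free sham was the highest and BCAA-free TAC the lowest. By peak signal at the highest-mean regions, control diet TAC was highest at 9 of the 10 genes and BCAA-free TAC lowest at 7.

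Summed signal of cell type markers also differed between the libraries. All 14 fibroblast markers had a region and a signal above 0. Their summed signal was 180.3 in control diet sham, 182.2 in control diet TAC, 241.2 in BCAA-free sham and 156.4 in BCAA-free TAC. Its highest and lowest libraries were those of Tgfb2, Tgfbr2 and Smad3, though the Tgfbr2 shams were within counting error of each other. The 12 endothelial markers, all with signal, summed to 235.9, 287.3, 192.5 and 235.1, with the same highest and lowest libraries as Tgfbr1, Smad4, Smad6 and Smad7. The 16 cardiomyocyte markers summed to 205.3, 240.7, 214.3 and 302.9, the 10 smooth muscle and pericyte markers to 128.9, 145.0, 124.7 and 121.1, and the 10 macrophage and immune markers to 176.5, 205.2, 171.5 and 135.7. The last sum rests on 8 distinct regions, since C1qa, C1qb and C1qc share 1 region and enter it 3 times, and the Csf1r region is also that of Pdgfrb in the smooth muscle list. Of the 10 macrophage and immune markers 4 were above 0 after TAC on the control diet, with a median log2 ratio of -0.05. The part of these shifts in the values of the 10 genes was not tested. In whole hearts, fewer cells of a type and less mark per cell cannot be told apart. As for the tissue itself, all 16 cardiomyocyte markers had a region, and 4 of 10 genes of other organs did (Apoa1, Gfap, Sftpc and Slc17a7). The Sftpc values were the same in every library as those of Bmp1, a gene of the wider pathway lists below.

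The first comparison asked how the mark differs after pressure load on the control diet. None of the 10 genes reached 1.5-fold at its highest-mean region, where 5.86% of all genes were at least 1.5-fold higher and 0.694% lower. The median log2 ratio of the 10 was 0.14, with 7 above 0, against 0.27 over all genes, with 88.0% of genes above 0. Over all regions the median was 0.17, and after centring on it Tgfbr1, Smad3 and Smad4 were below 0. Relative to all genes 9 of the 10 lay below the median, Tgfb1 being the exception at percentile 77.1. Tgfb1 also was the only one at least 1.3-fold higher, as were 28.5% of all genes. The low end held the Smad2 inner region at 1.29-fold lower (1.07 to 1.56, percentile 1.82), Tgfbr2 at percentile 9.49 and Tgfb2 at percentile 11.5. Over all 20 regions 2 were past 1.5-fold, the distal Tgfb3 and the upstream Smad4 region, both higher, against 11.2% of all regions in either direction.

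The second comparison asked the same on the BCAA-free diet. Again 0 of the 10 reached 1.5-fold, where 3.79% of genes were higher and 4.88% lower. The median log2 ratio at the highest-mean regions was 0.05 against -0.04 over all genes. Tgfb2 (1.41-fold lower), Smad3 (1.27-fold lower) and Tgfbr2 (1.12-fold lower) were below 0 with intervals that exclude 1, and Smad6 and Smad7 above 0. At the regions nearest to the start the median of the 10 was -0.05. There Tgfb1 was 1.10-fold lower (1.03 to 1.17) and Smad2 1.18-fold lower (1.06 to 1.31). By average signal at the highest-mean regions 7 of the 10 were above 0, and by peak signal 9 of the 10 were below 0. Smad7 was among these 9, with a peak of 209 after TAC against 243. The median log2 ratio by peak was -0.18 for the 10 and for all genes. By average signal at the highest-mean regions, Tgfb2 was the only one at least 1.3-fold lower, as were 11.1% of all genes. Of the 20 regions 3 were past 1.5-fold, where 22.4% of all regions were: the downstream Tgfb2 region and the nearer of the weaker Tgfb3 regions were lower, and the 2.40 kb Smad2 region was higher.

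The third comparison set the diets side by side in sham hearts. The 10 genes split evenly, 5 above and 5 below 0, with a median log2 ratio of -0.01 against 0.01 over all genes. None reached 1.5-fold, where 1.21% of genes were higher and 1.42% lower. Tgfb2 at 1.20-fold and Smad3 at 1.16-fold (1.11 to 1.20) were higher on the BCAA-free diet by average signal, and both were lower by peak signal. Smad2 at 1.48-fold, Tgfbr1 at 1.11-fold (1.01 to 1.20) and Smad6 at 1.08-fold (1.05 to 1.11) were lower. Smad2 alone was at least 1.3-fold lower, as were 4.47% of genes. Among the 20 regions 0 were past 1.5-fold, where 8.19% of all regions were.

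The fourth comparison was of the diets after TAC. Signal was lower on the BCAA-free diet at 9 of the 10 genes, with a median log2 ratio of -0.17. Of all genes 12.9% were above 0, and their median was -0.31. Relative to all genes, then, 9 of the 10 lay above the median and Tgfb1 (1.25-fold lower, 1.18 to 1.32) lay at percentile 48.8. None reached 1.5-fold, where 1.11% of genes were higher and 11.7% lower. Smad3 was 1.19-fold lower (1.14 to 1.24), Tgfb2 1.17-fold (1.07 to 1.28) and Smad7 1.16-fold (1.12 to 1.20). Over all regions the median was -0.22, and after centring on it Tgfb3, Tgfbr1, Tgfbr2, Smad4, Smad6 and Smad7 were above 0. Of the 20 regions 4 were past 1.5-fold, where 17.8% of all regions were. These were both weaker Tgfb3 regions and the upstream Smad4 region (1.88-fold, 1.19 to 3.01), all lower, and the 2.40 kb Smad2 region, 1.89-fold higher (1.302 to 2.78).

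**Figure D3:**
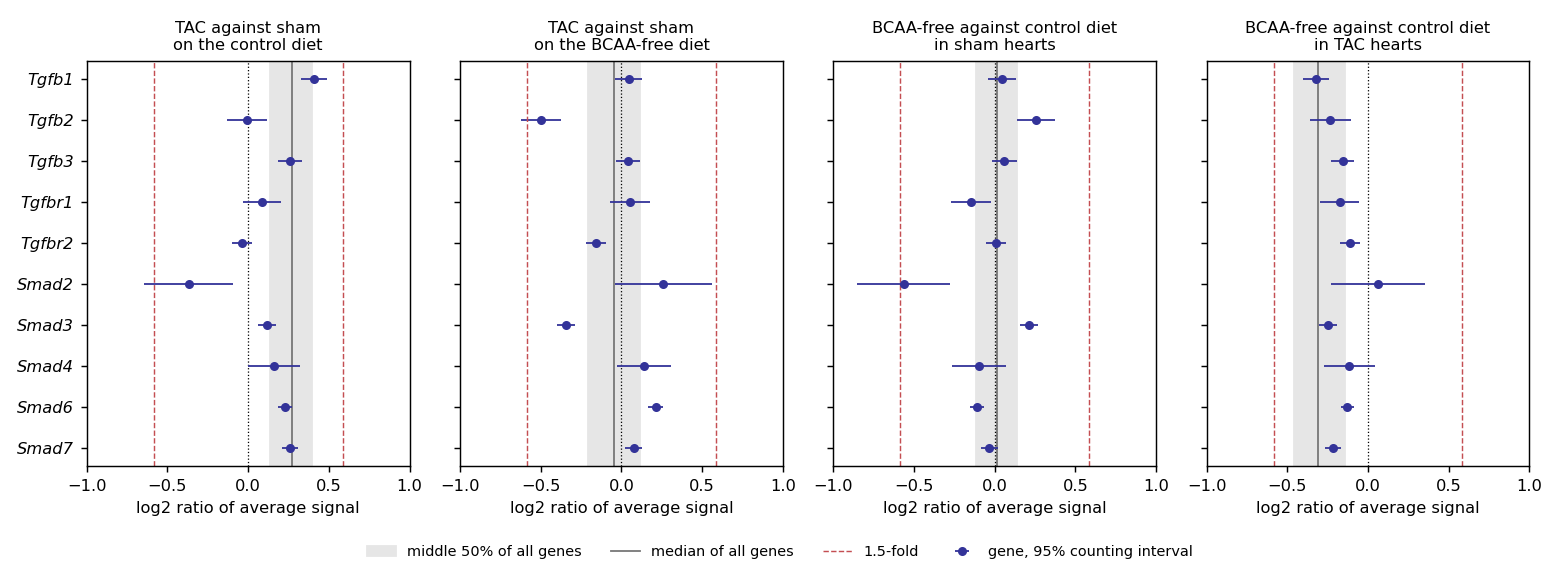
Log2 ratio of average signal at the highest-mean region of each gene in the 4 comparisons, with 95% counting intervals; the grey band holds the middle 50% of all genes, the grey line their median, and dashed lines mark 1.5-fold. No gene lies beyond 1.5-fold, and after TAC on the control diet 9 of the 10 lie left of the grey line.

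To compare the TAC response between diets, the log2 ratio on the control diet was subtracted from that on the BCAA-free diet. The median of this difference was -0.15 over the 10 genes and -0.32 over all genes. The Smad2 inner region, at 0.63 (0.23 to 1.02), was the only one past 1.5-fold (0.58 on the log2 scale), and 1.95% of all genes were at least 1.5-fold higher and 17.9% lower. At the region over the Smad2 start the difference was -0.13 (-0.35 to 0.08). Tgfb2 at -0.49 (-0.66 to -0.32) and Smad3 at -0.46 (-0.54 to -0.38) were at least 1.3-fold lower, as were 42.5% of all genes. Tgfb1 was at -0.37 (-0.48 to -0.25), and Smad6 at -0.02 (-0.08 to 0.04) and Smad4 at -0.02 (-0.25 to 0.21) had intervals that include 0. Of the 20 regions 5 were past 1.5-fold, where 26.6% of all regions were.

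Peak signal, the highest point within a region, set control diet TAC further apart than average signal did. Between TAC and sham on the control diet it was higher at 9 of the 10 genes and at 90.5% of all genes, with a median log2 ratio of 0.38 for the 10 and for all genes. Smad4 had peaks of 62, 114, 68 and 65 in control diet sham, control diet TAC, BCAA-free sham and BCAA-free TAC, a 1.84-fold difference where its average differed by 1.12-fold. Tgfb3 had peaks of 106, 164, 126 and 94. These were the 2 genes at least 1.5-fold higher by peak signal, as were 19.1% of all genes. After TAC, all 10 had lower peaks on the BCAA-free diet, as did 92.5% of all genes, and Tgfb2, Tgfb3, Tgfbr2, Smad3 and Smad4 were at least 1.5-fold lower, where 41.7% of all genes were. In the difference between diets 5 of the 10 were at least 1.5-fold lower by peak, where 47.7% of all genes were. Between TAC and sham on the BCAA-free diet and between the shams 0 of the 10 were past 1.5-fold by peak, where 13.5% and 5.96% of all genes were. Whether a taller peak in 1 library follows its depth or scaling was not tested; approximate tags over all regions were about 18900000 in control diet TAC and 16900000 to 17100000 in the others.

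Around the core, 84 of 92 genes of the wider pathway had a region, in 6 lists. Between TAC and sham on the control diet 6 of the 84 (7.14%) were at least 1.5-fold higher and 0 lower, close to the 5.86% and 0.694% of all genes. They were Tnc at 2.75-fold (1.93 to 4.00), Timp1 at 1.55-fold (1.29 to 1.86), Junb and Cdkn2b among 22 target genes, Ltbp2 at 1.55-fold (1.39 to 1.72), and the activin subunit gene Inhbb at 1.76-fold (1.58 to 1.97). All but Inhbb share their region with another gene in the table. Tnc had low signal, 4.03, 11.1, 5.47 and 6.35 in control diet sham, control diet TAC, BCAA-free sham and BCAA-free TAC. Its mean of 6.73 was below the median of 9.36 over all regions. Ltbp2 belongs to the family of latent TGF-beta binding proteins. Its signal was 8.25, 12.8, 10.8 and 9.81 in control diet sham, control diet TAC, BCAA-free sham and BCAA-free TAC. Inhbb had 14.4, 25.3, 15.5 and 15.4, with control diet TAC alone standing apart.

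Under the BCAA-free diet 9 of the 84 (10.7%) were at least 1.5-fold lower after TAC and 1 (1.19%) higher, where 4.88% of all genes were lower and 3.79% higher. In the same comparison 9 of 14 fibroblast markers were at least 1.5-fold lower and 0 of 14 were above 0 (median log2 ratio -0.69), and 9 of 16 cardiomyocyte markers were at least 1.5-fold higher. Their part in the pathway counts was not tested. In the list of latent TGF-beta storage and activation, 3 of 15 were at least 1.5-fold lower and 1 of 15 was above 0, where 42.0% of all genes were above 0. Itgb8, an integrin subunit that releases active TGF-beta, was 1.74-fold lower at 26.8, 28.4, 32.0 and 18.4, and Thbs1, a latent TGF-beta activator, was 1.67-fold lower at 12.9, 14.1, 16.3 and 9.75. The third was Ltbp1, which tethers latent TGF-beta to the matrix. Among the other ligands and antagonists 4 of 13 were lower, led by Bmp2 at 2.06-fold and the activin subunit gene Inhba at 1.99-fold, while Bmp7 was 1.72-fold higher (1.28 to 2.33). The Bmp7 region holds no promoter, is centred 77494 bp from the start and had a mean signal of 9.04, below the median of 9.36 over all regions. Bmp2 had 16.6, 18.5, 21.2 and 10.3, and Inhba had 14.5, 14.9, 20.9 and 10.5, so both were highest in BCAA-free sham and lowest in BCAA-free TAC, as Tgfb2 and Smad3 were. The target genes Lox, a collagen crosslinking enzyme, and Fap, a marker of activated fibroblasts, were 1.63-fold and 1.67-fold lower.

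Between the shams 1 of the 84 (1.19%) was at least 1.5-fold higher on the BCAA-free diet, Lox at 1.68-fold (1.48 to 1.91), and 0 were lower. Of all genes 1.21% were higher and 1.42% lower. After TAC 0 were higher on the BCAA-free diet, beside 1.11% of all genes, and 11 were lower, 13.1% of the 84 beside the 11.7% of all genes. Nrros, listed under its older symbol Lrrc33, which holds latent TGF-beta on myeloid cells, was 2.53-fold lower (1.69 to 3.87). Its region holds no promoter and is centred 17677 bp from its start. The Smad corepressor Tgif1 was 1.53-fold lower. Of the other receptors of the superfamily with a region 0 of 10 were past 1.5-fold in each of the 4 comparisons. Bmpr1a was 1.35-fold higher on the BCAA-free diet after TAC (1.28 to 1.43). Among 9 non-Smad kinases and adaptors 0 were past 1.5-fold in the 4 comparisons. In the difference between diets 22 of the 84 (26.2%) were at least 1.5-fold lower beside 17.9% of all genes, and 0 were higher beside 1.95%.

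**Figure D4:**
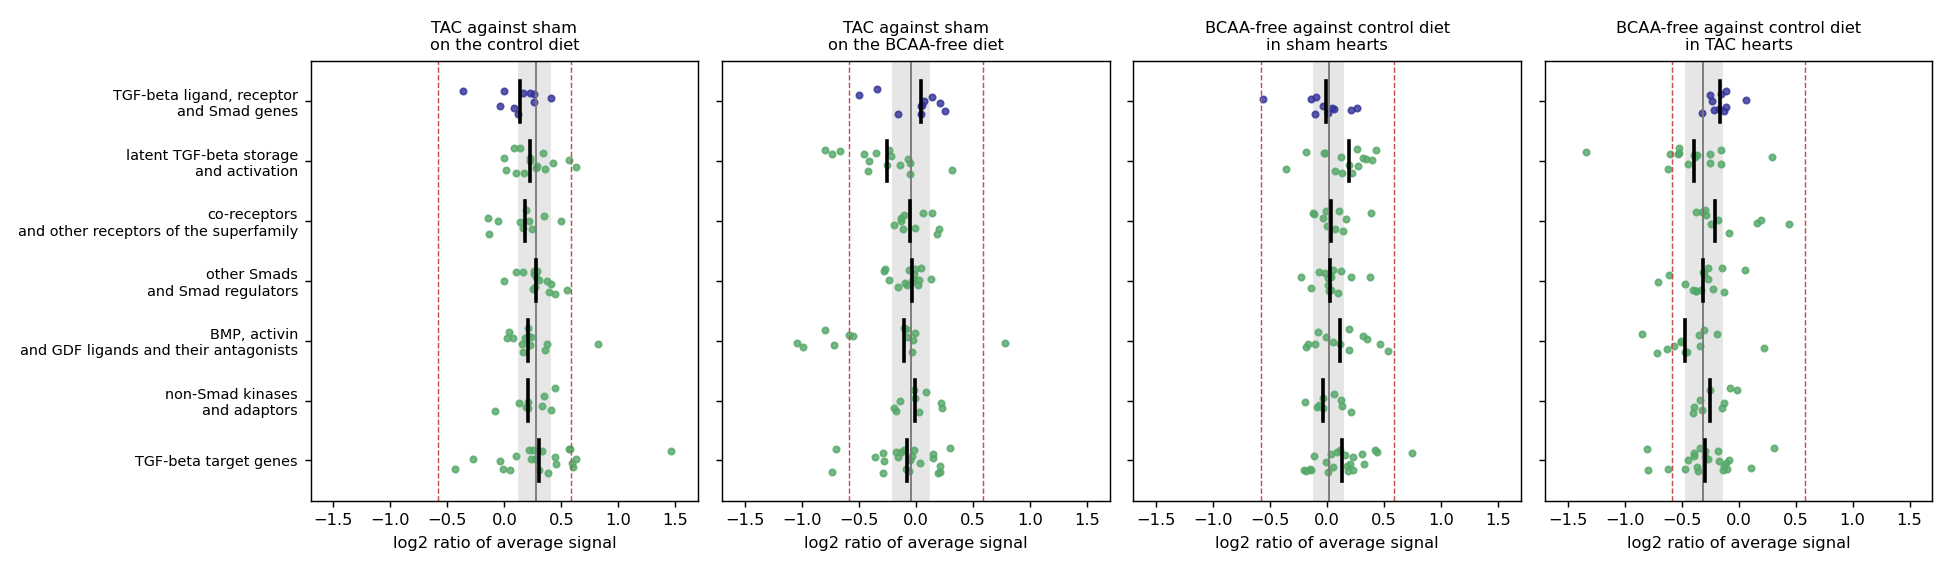
Log2 ratio of average signal for each gene of the 10 core genes (blue) and of 6 wider pathway lists (green) in the 4 comparisons; black bars are list medians, the grey band and line the middle 50% and median of all genes, dashed lines 1.5-fold. The core genes stay within 1.5-fold while single genes of the storage, Smad regulator, ligand and target lists pass it in at least 1 comparison.

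Among the 10 genes the Smad2 inner region varied most over the libraries. Of 15611 genes resting on other regions with at least median mean signal, those closest to it in centred log2 signal were Zfp946 (root mean square difference 0.029), 4930425K10Rik (0.035), Btla (0.073), Actr3b (0.073) and Perp (0.073). The likeness rests on 4 values a gene and is a description only.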

How the data were processed

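Per the labels' protocols, chromatin immunoprecipitation was done by Active Motif. The submitters' processing notes name BWA, MACS2 and mm10, with neither role nor version. The deposited table holds, per the file headers, 2 kinds of signal per merged region and library, its average and its peak. How the authors scaled it between libraries, and whether input was subtracted, is not given in the sources used here. The input library was not analysed here. The authors' deposited log2 ratios equalled plain ratios of average signal to within 8.88e-16 and served only for that check.

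From these values, plain ratios were computed with Python 3.11.15 and scipy 1.17.1. Approximate tags were average signal times length divided by 224, the relation that returns the deposited maximum tag number. Highest-mean regions of the 10 genes held 171 to 9825 tags. Exact 95% intervals (Clopper-Pearson) come from these tags, those for the difference between diets from a normal approximation; both cover counting error only. With 1 library per group no test was run, and an additive model over the 4 libraries was not fitted. A fold of 1.5 was the threshold. Percentiles and shares are over 18161 genes at their highest-mean regions, which rest on 11926 regions. The ratios and intervals were tested on simulated data.

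The genes and lists were chosen with earlier results of these data known. Named are all 10 genes, and of each pathway list up to 2 genes at either end of a comparison; Junb, Cdkn2b and Ltbp1 were added after their values were seen. The 9 alternatives were 2 pseudocounts, peak signal, centring, 2 other choices of region, 2 fold thresholds and a filter on low signal.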

Additional observations from a re-analysis of the deposited data

Results flagged for a closer look

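Tgfb2 and Smad3 had opposite signs between comparisons, each with counting intervals that exclude 1; with 1 library per group the difference was not tested across samples. At Smad3 TAC stood above sham on the control diet and below it on the BCAA-free diet, a difference of -0.46 on the log2 scale, and equally the BCAA-free diet stood above the control diet in sham hearts and below it after TAC (-0.46, by construction the same number). At Tgfb2 the BCAA-free diet was above the control diet in sham hearts and below it after TAC, a difference of -0.49. These signs depended on the measure. By peak signal the BCAA-free diet was below the control diet in sham hearts at both genes, with log2 ratios of -0.29 at Tgfb2 and -0.16 at Smad3, so the diet comparisons no longer had opposite signs. After centring on the median of all regions, Smad3 in TAC against sham hearts on the control diet was at -0.05, below 0 as on the BCAA-free diet.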

How the results depend on the processing

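No paired analysis was possible because each group had 1 library; for the same reason no library could be left out. By average signal 0 of the 10 genes were past 1.5-fold in the 4 comparisons with either pseudocount, after centring on the median of all regions, with the region nearest to the start, with a gene's regions averaged, at 2-fold and, of the 9 genes left, with the filter on low signal. At 1.3-fold there was 1 higher after TAC on the control diet, 1 lower after TAC on the BCAA-free diet, 1 lower between the shams and 2 lower in the difference between diets. With peak signal there were 2 higher after TAC on the control diet (median log2 ratio 0.38), 5 lower on the BCAA-free diet after TAC (median -0.57), and 5 lower and 0 higher in the difference between diets (median -0.59). Centring turned the median of the BCAA-free diet against the control diet after TAC to 0.053 and that of the difference between diets to 0.067. The call of Smad2 in that difference (1 gene) became 0 with either pseudocount, the region nearest to the start, the mean of all regions, the 2-fold threshold and the filter on low signal, and the Smad2 value was -0.13 at the region nearest to the start, the opposite sign. Among single log2 ratios, 14 of 50 changed sign with peak signal, 15 of 50 with centring, 5 of 50 with the nearest region and 4 of 50 with the mean of all regions. The cause of these shifts was not tested. Counting error limits the small regions of Smad2 and Smad4, which rest on under 100 tags in a library.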
